A study of Saccharomyces cerevisiae with 4 samples.

Results

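The genes described here build the peroxisome of Saccharomyces cerevisiae and oxidise fatty acids inside it. They are the peroxins (gene symbol PEX with a number), 11 enzymes and transporters of peroxisomal fatty acid oxidation, and the transcription factors OAF1 and PIP2. They were taken by symbol, with 1 probe set per gene, and came to 40 of the 5656 genes tested: 27 peroxins, 11 oxidation genes and 2 regulators. Transcript levels came from Affymetrix arrays of total RNA from wild type SEY6210 (2 arrays) and from a pmt1 pmt2 mutant in the same background (2 arrays), each array from its own biological sample. Cells of both groups were diluted to an OD of 0.1, grown to 0.45 and then for 3 hours more. The carbon source and the nature of the pmt1 and pmt2 alleles are not given in the sources used here.

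In yeast, peroxisomes are the only site of fatty acid beta-oxidation. Matrix enzymes are made in the cytosol and brought in by the receptors Pex5 and Pex7, which dock at the peroxisomal membrane and are then ubiquitinated and pulled out again. On oleate, the transcription factors Oaf1 and Pip2 bind as a pair and, together with Adr1, switch on the oxidation genes and some peroxins, whereas glucose keeps this set low. PMT1 and PMT2 encode O-mannosyltransferases of the endoplasmic reticulum, which modify secretory and cell wall proteins.

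Signals are the deposited intensities, on a linear scale and with no further scaling, and each probe set is compared only with itself. A signal of 26.2, the highest reading among 19 controls against bacterial and mouse transcripts, is taken as background. PMT1 and PMT2 were lower on the arrays labelled pmt1 pmt2: PMT1 measured 1178 and 809 in wild type against 111 and 104, and PMT2 measured 2646 and 2771 against 11.9 and 15.5 (limma adjusted p = 0.0399 and 0.00336). The arrays numbered 1 stood apart from those numbered 2 in both groups. Actin controls read 2.99 and 3.15 times higher at the 3′ than at the 5′ end on arrays 1, and 1.38 and 1.32 times on arrays 2. The log2 change is therefore also given within arrays 1 and within arrays 2, and for the genes concerned the limma fit that takes array number as a replicate block, which leaves 1 residual degree of freedom, is added.

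Among genes above background, the clearest differences lay in SPS19 and TES1, for enzymes that act beside the oxidation cycle. Of the 3 genes of the cycle itself, FOX2 was 2.33-fold higher with a wide spread, and POX1 and POT1 stayed at background in both groups. None of the 40 genes passed limma's test at an adjusted p under 0.05 (0 called, against 0.389% of all genes tested). At an unadjusted limma p under 0.05, 4 of the 40 were higher in pmt1 pmt2, or 10.0%, against 5.36% of all genes; 0 were lower, against 1.79%. Among genes above background on all arrays, 2 of 23 were higher (8.70%, against 4.26%). Both mutant arrays lay above both wild type arrays for 12 of the 40 (30.0%, against 18.5% of all genes) and below both for 3 (7.50%, against 14.7%). The median log2 change was 0.30 over the 40 genes and 0.027 over all genes. Leaving out pmt1 pmt2 array 2 or array 1 moved the former to 0.025 or 0.61 and the latter to −0.14 or 0.24. With 2 arrays against 2, an exact permutation test of 1 gene cannot go below p = 0.333.

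**Figure D1:**
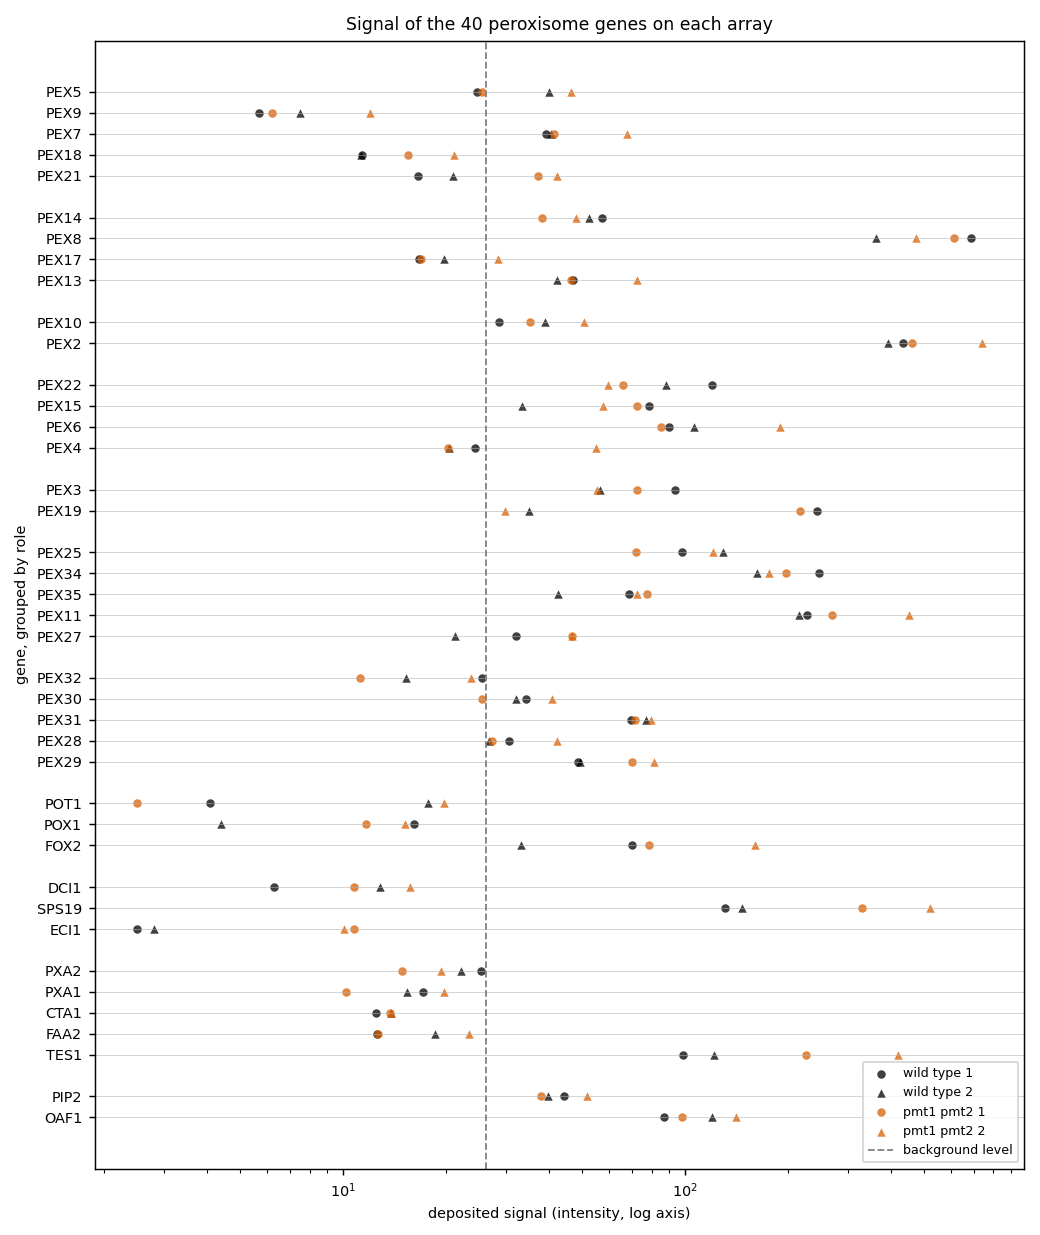
Deposited signal (x axis, log scale) of the 40 genes on each of the 4 arrays, grouped by role. Black marks are wild type and orange marks pmt1 pmt2, circles are arrays numbered 1 and triangles arrays numbered 2, and the dashed line is the background of 26.2. For SPS19 and TES1 the orange marks lie clear of the black ones, whereas for PEX19 circles and triangles lie apart and colours do not.

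SPS19 (YNL202W) encodes the 2,4-dienoyl-CoA reductase that prepares polyunsaturated fatty acids for oxidation. Its signal was 131 and 148 in wild type, against 331 and 522 in pmt1 pmt2. Both mutant arrays lay above both wild type arrays, a 2.99-fold difference of the geometric means (log2 change 1.58 ± 0.39 (SE), limma adjusted p = 0.298, unadjusted 0.00657). Within arrays 1 and 2 the log2 change was 1.33 and 1.82. With the replicate block the limma adjusted p was 0.0328. In bulk RNA a higher level in all cells and in some of them cannot be told apart. The genes on either side of SPS19 in the RefSeq order, looked at after its value was seen, gave other values: SPS18 was at or below background on all arrays (15.6 and 15.2 against 9.10 and 20.2), and PSY2 measured 39.8 and 59.8 against 26.8 and 64.7.

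TES1 (YJR019C) encodes the peroxisomal acyl-CoA thioesterase, which releases free fatty acids from their CoA esters. It measured 98.7 and 121.5 in wild type, against 226 and 420.5 in the mutant. Here too the groups did not overlap, with a 2.82-fold difference (log2 change 1.49 ± 0.43 (SE), limma adjusted p = 0.432, unadjusted 0.0134), and the change within arrays 1 and 2 was 1.20 and 1.79. With the replicate block the limma adjusted p was 0.0443. Its neighbour REC107 measured 20.1 and 32.5 in wild type against 13.4 and 29.3.

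ECI1 (YLR284C), for the enoyl-CoA isomerase that acts on unsaturated fatty acids, had a log2 change of 1.98 ± 0.34 (SE), but on signals far below background. They were 2.50 and 2.80 in wild type, against 10.8 and 10.1, so no fold is given (limma adjusted p = 0.135, and 0.0127 with the block). Its paralogue DCI1 (YOR180C) was also at background throughout, at 6.30 and 12.8 against 10.8 and 15.7. SPS19, TES1 and ECI1 were the 3 of the 40 genes that passed with the block, all higher (7.50%, against 2.28% of all genes higher in that fit). Among genes above background on at least 1 array, SPS19 and TES1 were 2 of 29 (6.90%, against 2.26%). Quantile normalization together with the block, tried after seeing the data, left none of the 3 past the threshold (limma adjusted p = 0.0546, 0.0617 and 0.0847).

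The cycle itself is run by Pox1, the acyl-CoA oxidase, Fox2, the multifunctional hydratase and dehydrogenase, and Pot1, the thiolase. FOX2 (YKR009C) measured 69.9 and 33.1 in wild type, against 78.4 and 160.2 in the mutant. The groups did not overlap, but the spread was wide. The log2 change was 0.17 within arrays 1 and 2.28 within arrays 2, and 1.22 ± 0.55 (SE) in the fit of all 4 (limma adjusted p = 0.773, and 0.236 with the block). In the fit with the block over genes with a mean log2 signal of at least 6, added after seeing the data and with an infinite estimate of limma's prior degrees of freedom, FOX2, PEX22 and PEX11 passed as well (limma adjusted p = 2.2e-05, 0.0279 and 0.0494); that fit called 17.0% of its genes. In the fit of all genes without the block, the log2 change of FOX2 was 0.70 when pmt1 pmt2 array 2 was left out. It was 0.68 when wild type array 2 was left out, but 1.74 or 1.76 when array 1 of pmt1 pmt2 or of wild type was. POX1 (YGL205W) gave at most 16.1 on any array in any of its 4 probe sets. Its probe set with the highest mean read 16.1 and 4.40 in wild type and 11.7 and 15.2 in the mutant. POT1 (YIL160C) read 4.10 and 17.8 against 2.50 and 19.8, so that its arrays numbered 2 stood above those numbered 1 in both groups, all under background.

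The remaining oxidation genes bring fatty acids in or clear a by-product, and all were at or below background on all 4 arrays. FAA2 (YER015W), for the medium-chain acyl-CoA synthetase, measured 12.6 and 18.6 in wild type, against 12.7 and 23.4. CTA1 (YDR256C), for the peroxisomal catalase that removes the hydrogen peroxide made by Pox1, measured 12.5 and 13.8 against 13.7 and 13.8. PXA1 (YPL147W) and PXA2 (YKL188C) together encode the transporter for long-chain acyl-CoA. PXA1 measured 17.1 and 15.4 against 10.2 and 19.8, and PXA2 25.3 and 22.1 against 14.9 and 19.4. In all, 8 of the 11 oxidation genes were at or below background on all arrays (72.7%), compared with 3 of 27 peroxins (11.1%) and 10.6% of all genes; SPS19, TES1 and FOX2 were above it on all 4. For these 8, ECI1 among them, the arrays give only an upper bound of 26.2 in either group. A difference between values below that level, such as that of ECI1, cannot be read as one in transcript level.

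The regulators overlapped between the groups. OAF1 (YAL051W) measured 87.0 and 120.4 in wild type against 98.5 and 140.9 in pmt1 pmt2, a log2 change of 0.20 ± 0.39 (SE). PIP2 (YOR363C), its partner, measured 44.4 and 39.7 against 38.1 and 51.8, a log2 change of 0.082 ± 0.36 (SE). Neither passed (limma adjusted p = 0.994 for both).

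**Figure D2:**
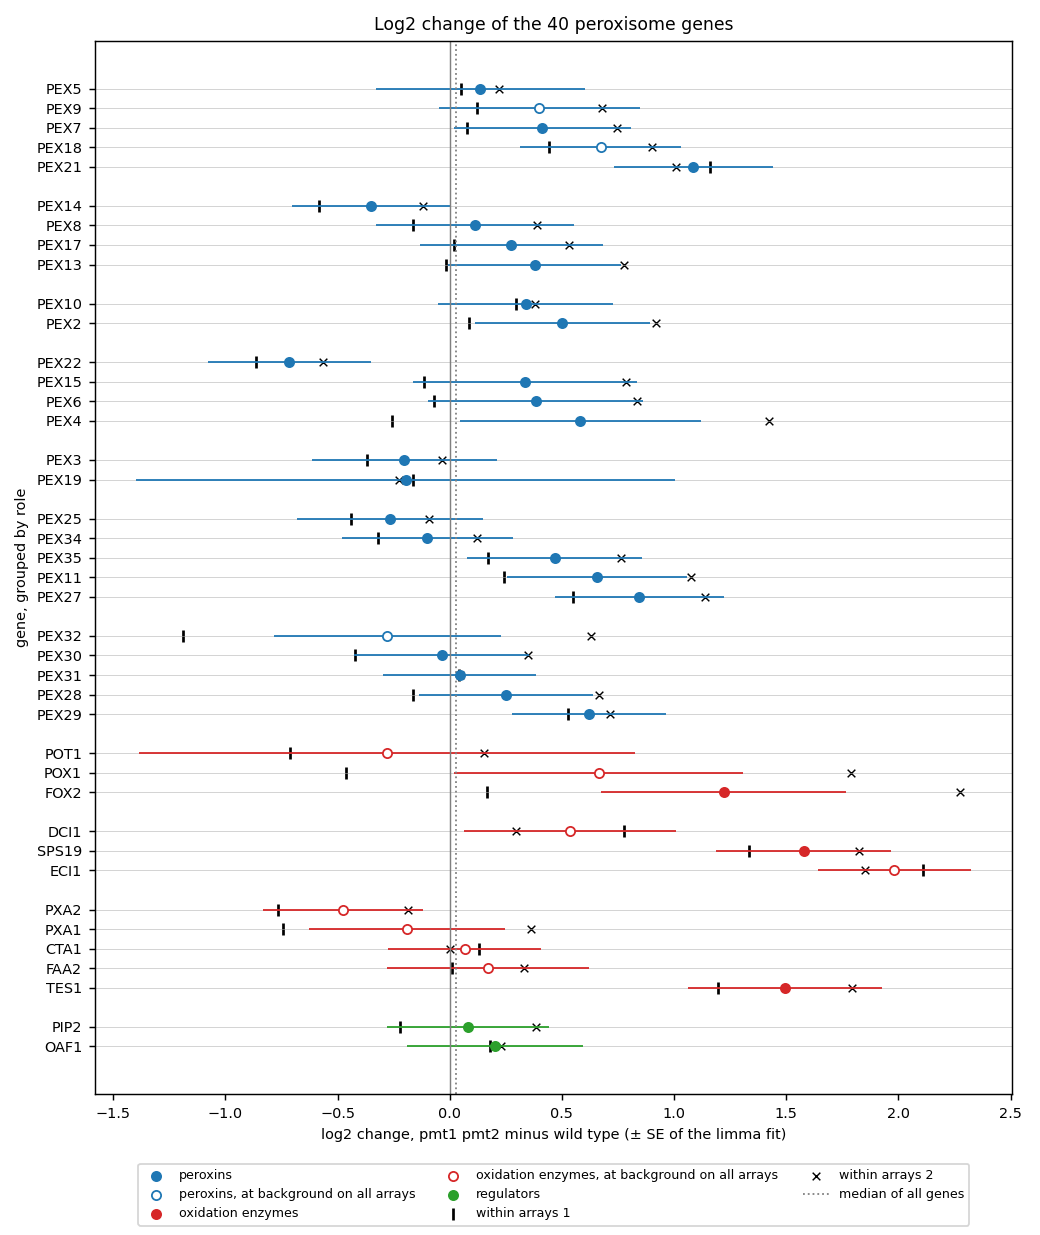
Log2 change (x axis, pmt1 pmt2 minus wild type) of the 40 genes with the SE of the limma fit, grouped by role; open circles are genes at or below background on all arrays, and vertical ticks and crosses give the change within arrays 1 and within arrays 2. SPS19 and TES1 are the filled circles farthest to the right, and PEX22 is farthest to the left at −0.71.

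Over the 27 peroxins the log2 change ran from −0.71 (PEX22) to 1.09 (PEX21), with a median of 0.34. The sign was positive within both array numbers for 13 of the 27, negative within both for 5 and opposite for 9. Of all 5656 genes, 1803 were positive within both, 1755 negative within both and 2071 opposite. The median was −0.018 within arrays 1 and 0.67 within arrays 2, where all genes had −0.15 and 0.21. Without pmt1 pmt2 array 2 the peroxin median was −0.0053. It was also −0.028 over the 10 peroxins with a mean log2 signal of at least 6. For the 11 oxidation genes the median was 0.54 (0.13 within arrays 1 and 0.36 within arrays 2), most of it on values under background. The medians of enzymes and peroxins were not set against each other in a test, because genes are not replicates of a group.

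Among the import receptors, PEX21 (YGR239C) stood out. Pex21 and its paralogue Pex18 are co-receptors that Pex7 needs to carry its cargo, of which the thiolase Pot1 is the best known. PEX21 measured 16.6 and 21.0 in wild type, under background, but 37.1 and 42.3 in the mutant, which is at least 1.51-fold higher (log2 change 1.09 ± 0.35 (SE) from the deposited values, limma adjusted p = 0.529, unadjusted 0.0220, 0.0805 adjusted with the block). The change was 1.16 and 1.01 within arrays 1 and 2, and its neighbours KEL2 and PFK1 had log2 changes of −0.19 and −0.27. PEX18 (YHR160C) was under background on all arrays, at 11.4 and 11.3 against 15.5 and 21.1. PEX7 (YDR142C) itself measured 39.2 and 40.5 against 41.4 and 67.9, non-overlapping by a small margin on array 1. PEX5 (YDR244W), the receptor for most matrix enzymes, overlapped at 24.6 and 40 against 25.5 and 46.6. PEX9 (YMR018W), a related receptor that is made on oleate, stayed between 5.70 and 12 on all arrays.

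At the docking and ubiquitination steps, arrays of the groups overlapped for PEX8, PEX10, PEX13 and PEX17 and not for PEX2 and PEX14. PEX14 (YGL153W), the docking subunit that receives loaded receptors, was lower on both mutant arrays, at 57.3 and 52.4 against 38.3 and 48.2 (log2 change −0.35 ± 0.35 (SE)). Its docking partner PEX13 (YLR191W) measured 47.2 and 42.2 against 46.6 and 72.3. PEX17 (YNL214W), of the same complex, was above background on 1 array alone, at 16.7 and 19.7 against 16.9 and 28.5. The log2 change of PEX8, which joins the docking and RING complexes from inside, was 0.11. PEX8 (YGR077C) measured 687 and 362 in wild type against 614 and 474, a spread within wild type that exceeded the difference between groups. Of the RING ligases that ubiquitinate the receptors, PEX2 (YJL210W) measured 436 and 392.5 against 463 and 741, with its log2 change at 0.088 within arrays 1 and 0.92 within arrays 2, and PEX10 (YDR265W) 28.7 and 39.0 against 35.2 and 50.8. For PEX2 the array left out decided the size, which was 0.16 when pmt1 pmt2 array 2 was dropped and 0.84 when array 1 was.

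Genes for recycling of the receptors differed in sign. PEX22 (YAL055W), the membrane anchor of the ubiquitin-conjugating enzyme Pex4, was lower on both mutant arrays. It measured 119.9 and 88.4 in wild type, against 65.8 and 59.8 in the mutant, 1.64-fold lower (log2 change −0.71 ± 0.36 (SE), −0.87 and −0.56 within arrays 1 and 2, limma adjusted p = 0.841, and 0.218 with the block). PEX4 (YGR133W) was above background on 1 array alone, at 24.3 and 20.5 against 20.3 and 54.9. PEX6 (YNL329C), an ATPase that extracts the receptors, measured 89.7 and 106 against 85.4 and 189.9, and its anchor PEX15 (YOL044W) 78.7 and 33.5 against 72.7 and 57.7. For PEX4, PEX6 and PEX15 the change was negative within arrays 1 and positive within arrays 2.

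Peroxisomal membrane proteins are inserted by the chaperone Pex19 and its membrane partner Pex3. PEX19 (YDL065C) had the largest array-number difference of the 40 genes and ranked 15 of 5656 in its size. It measured 244 and 35.0 on wild type arrays 1 and 2 and 218 and 29.9 on pmt1 pmt2 arrays 1 and 2, so array 1 read 6.98-fold and 7.29-fold above array 2 in the same group. Between the groups the log2 change was −0.16 within arrays 1 and −0.23 within arrays 2. In the fit without the block its SE was 1.20. PEX3 (YDR329C) measured 93.9 and 56.7 against 72.7 and 55.3. For 22 of the 40 genes the mean difference between array numbers was larger than that between groups (55.0%, against 59.4% of all genes).

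**Figure D3:**
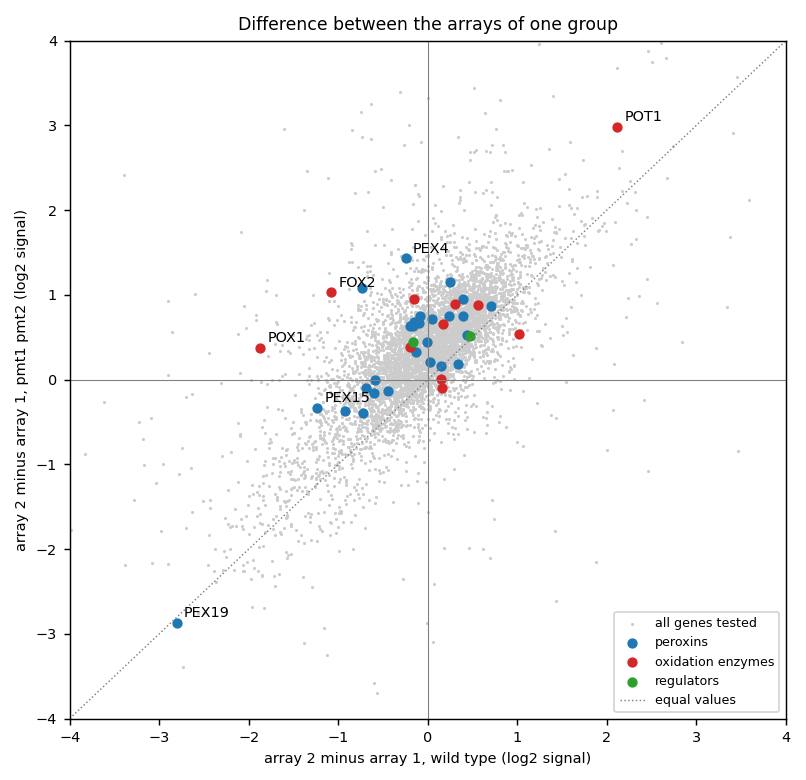
Log2 signal of array 2 minus array 1 in wild type (x axis) and in pmt1 pmt2 (y axis) for the 40 genes over all 5656 genes tested in grey, 13 of which lie outside the axes. PEX19 at the lower left and POT1 at the upper right differ between array numbers alike in both groups, whereas FOX2 and POX1 lie at the upper left, with opposite signs in the groups.

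Of the 5 genes for elongation and division 3 were higher on both mutant arrays, and so was 1 of the 5 for size and number, where all genes had 18.5%. Pex11 shapes and elongates the membrane before division, and Pex25 and Pex27 are related to it. PEX11 (YOL147C) measured 229 and 215 in wild type, against 269.9 and 453 in the mutant (log2 change 0.66 ± 0.40 (SE), 0.24 and 1.07 within arrays 1 and 2, limma adjusted p = 0.912). Dropping pmt1 pmt2 array 2 gave it a log2 change of 0.28, and dropping array 1 gave 1.03. PEX27 (YOR193W) measured 32.0 and 21.3, the latter under background, against 46.9 and 46.8 (log2 change 0.84 ± 0.38 (SE), limma adjusted p = 0.773, 0.178 with the block). Without wild type array 1 or array 2 its log2 change was 1.14 or 0.55. PEX25 (YPL112C) was not on that side, with 97.9 and 129 against 72.1 and 121.

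PEX35 (YGR168C), which affects peroxisome abundance, measured 68.7 and 42.7 against 77.4 and 72.4, and PEX34 (YCL056C) overlapped at 247 and 162.5 against 198 and 177. PEX28 to PEX32 encode membrane proteins that set the size and number of peroxisomes. Of these PEX29 (YDR479C) was higher on both mutant arrays, at 48.8 and 49.5 in wild type against 70.3 and 81.3 (log2 change 0.62 ± 0.34 (SE), 0.53 and 0.72 within arrays 1 and 2, limma adjusted p = 0.889). PEX28, PEX30, PEX31 and PEX32 had overlapping arrays. PEX32 (YBR168W) was under background throughout, at 25.5 and 15.3 against 11.2 and 23.7. PEX31 (YGR004W) measured 69.5 and 77.3 against 71.5 and 79.8, a log2 change of 0.041 and 0.046 within arrays 1 and 2.

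**Figure D4:**
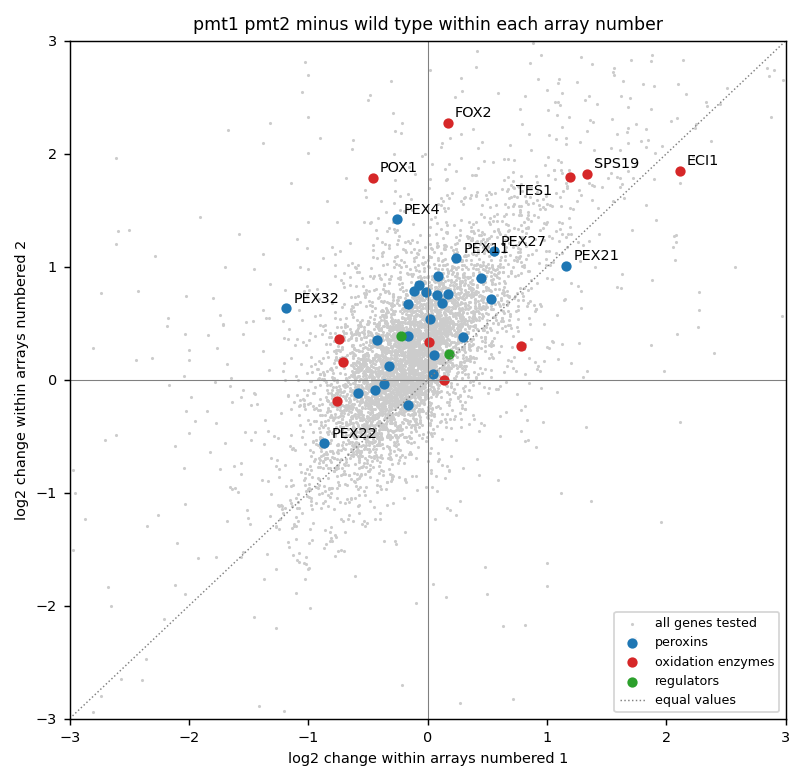
Log2 change within arrays numbered 1 (x axis) and within arrays numbered 2 (y axis) for the 40 genes over all 5656 genes tested in grey, 63 of which lie outside the axes. SPS19, TES1 and ECI1 lie at the upper right and PEX22 at the lower left, while FOX2, POX1 and PEX4 are high on the y axis and near or below 0 on the x axis.

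A list of 35 other genes of peroxisomal metabolism, inheritance and their control was read beside the 40. It was chosen with earlier results of these data known. None passed limma's test (0 called, against 0.389% of all genes). At an unadjusted limma p under 0.05, 7 were higher (20.0%, against 5.36% of all genes) and 0 lower (against 1.79%). Among those above background on all arrays, 4 of 26 were higher (15.4%, against 4.26%). The median log2 change was 0.40, with 0.15 within arrays 1 and 0.53 within arrays 2. All genes had 0.027, −0.15 and 0.21. ADR1, for a transcription factor that acts with Oaf1 and Pip2, measured 24.9, under background, and 44.0 in wild type against 72.9 and 131.6 (log2 change 1.57 ± 0.48 (SE), limma adjusted p = 0.476, 0.0273 with the block). STR3, for a peroxisomal cystathionine beta-lyase, measured 31.3 and 33.5 against 115 and 246, 5.20-fold apart (limma adjusted p = 0.168, 0.0127 with the block). MLS1, for malate synthase of the glyoxylate cycle, measured 7.20 and 7, under background, against 26.4 and 36.9, or at least 1.19-fold more (limma adjusted p = 0.135, 0.0117 with the block). ADR1, STR3 and MLS1 were the 3 of the 35 that passed with the block, all higher (8.57%, against 2.28% of all genes higher in that fit). Among those above background on all arrays, STR3 was 1 of 26 (3.85%, against 1.78%).

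The other 4 genes of the list that were higher at an unadjusted limma p under 0.05 were CIT2, ICL1, PNC1 and YAT2. CIT2, the peroxisomal citrate synthase that takes up the acetyl-CoA made by oxidation, measured 457.5 and 324 against 963 and 703, and ICL1, isocitrate lyase, 31.6 and 38.5 against 58.0 and 83.0. PNC1, a nicotinamidase found in peroxisomes, measured 235 and 358 against 478 and 1049, and YAT2, a carnitine acetyltransferase, 30.0 and 21.0, the latter under background, against 49.2 and 47.4. Of 3 further genes, MDH3 and SNF1 were chosen after their values were seen. IDP3, which supplies Sps19 with NADPH inside the peroxisome, was under background throughout (12.8 to 14.2), MDH3, the peroxisomal malate dehydrogenase, overlapped at 354 and 346 against 291 and 380.5, and SNF1, for the kinase that relieves glucose repression, measured 155 and 181 against 155 and 202.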

How the data were processed

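The authors deposited 1 table of probe set signals (intensity, linear scale, 9335 probe sets, up to 12590.3). Per the submitters' processing notes GCRMA was used, with no version or settings; zeros and unequal array medians (54.4 to 66.1) are unusual for it, so the kind of summary is not certain; signals were used unscaled. Zeros were set to 0.1 and log2 taken. Of the probe sets, 6504 named 1 gene, and the one with the highest mean was kept for each of 5656 genes. Locus tags came from RefSeq R64 by Entrez number.

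Groups were compared with limma 3.58.1 (R 4.3.3; lmFit, eBayes, two-sided) over all 5656 genes with Benjamini-Hochberg adjustment, and genes at an adjusted p under 0.05 count as called. The fit was tested on simulated data. Gene folds are ratios of geometric means; where all arrays of the lower group were at or below 26.2, each of its values was raised to 26.2 and the fold is a lower bound. Same-numbered arrays deviated together (r = 0.65 across genes, which are not independent replicates), though the labels do not pair them.

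Members and lists were chosen with earlier results of these data known. All 40 genes could be named; every array is given for the oxidation genes, the regulators and most peroxins. Alternatives were quantile normalization, centring, a minimum mean, a floor, a mean-variance trend, the mean of probe sets, leaving out each array, and the replicate block.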

Additional observations from a re-analysis of the deposited data

How the results depend on the processing

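The number of arrays limits these results. The count of called genes, 22 of 5656, was 2 after quantile normalization, 14 after centring each array on its median, 37 over genes with a mean log2 signal of at least 6, 1 after raising log2 values below 4 to 4 and 169 with the replicate block on array number; leaving out 1 array gave 0 to 58. Of the 40 peroxisome genes 0 were called, except for 3 with the block (SPS19, with a log2 change of 1.58, TES1, with 1.49, and ECI1). Of these, ECI1 was under background on all arrays. In combinations added after seeing the data, the block gave 68 genes and 0 of the 40 with quantile normalization, 295 and 3 with centring, and 600 and 5 (SPS19, TES1, FOX2, PEX22 and PEX11) with the minimum of 6, where limma's estimate of the prior degrees of freedom was infinite. The median log2 change of the 40 genes, 0.30, lay between 0.025 and 0.61 over all alternatives. That of the oxidation genes, 0.54, was 1.49 with the minimum of 6 (3 genes, also with the block) and 0.077 with low values raised to 4, and leaving out 1 array gave 0.025 to 0.85. That of all genes moved to −0.14 or 0.24 when pmt1 pmt2 array 2 or array 1 was dropped. SPS19, TES1, FOX2, PEX2, PEX11, PEX21, PEX22, PEX27 and PEX29 kept their sign in every alternative that included them. ECI1 did too, except that its change was 0 with low values raised to 4. For each of these genes the groups did not overlap, so leaving out 1 array could not reverse the sign. The block does not alter the log2 change either. Over the 40 genes, leaving out 1 array gave a different sign for 4 to 11.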
